A study of Arabidopsis thaliana with 25 samples.

Results

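Transcripts of 9 genes of the hypoxia response were followed in Arabidopsis roots grown in soils of different phosphorus (P) content. The genes were taken by name, with earlier results of these data known, and all 9 were found among the 27206 protein-coding genes counted. They are ADH1 (AT1G77120), PDC1 (AT4G33070), SUS1 (AT5G20830), SUS4 (AT3G43190), HRE1 (AT1G72360), LBD41 (AT3G02550), PGB1 (AT2G16060), PCO1 (AT5G15120) and PCO2 (AT5G39890).

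When oxygen runs short, as in waterlogged or compacted soil, plant cells lose mitochondrial respiration and regenerate NAD+ by fermentation. The switch is set by group VII ethylene response factors (ERF-VIIs). Plant cysteine oxidases use oxygen to oxidize the N-terminal cysteine of these factors, which sends them to degradation through the N-degron pathway. In hypoxia the factors persist and induce a core set of genes that includes the 9 followed here.

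Each library held RNA of 1 root system, from 8-week-old plants raised in a greenhouse with 4 to a pot, in soil from long-term P fertilization plots, selected for poly(A) and sequenced without strand information. The genotypes were the phr1 phl1 double mutant, which lacks a pair of transcription factors of the phosphate starvation response (PSR), the phf1 mutant, which lacks PHF1, a protein of the secretory route that brings phosphate transporters to the cell surface, and the wild type Col-0, which is the background of both mutants. The regimes were low, medium and high P soil, and low+P, which was low P soil in pots given 12.6 mg of P. The phr1 phl1 line had 2 low P libraries and 1 low+P library, and phf1 and Col-0 each had 3 libraries in low, medium and high P and 2 in low+P. The 25 libraries fall into 10 groups, and within a group they are lettered A, B and C without meaning, because the count columns name only the group. The labels give each sample a soil plot, but the count columns do not say which library came from which plot. In low P, phf1 and Col-0 were grown on the same 3 plots (1, 4 and 7), whereas phr1 phl1 came from plots 10 and 16, so in that comparison genotype and plot cannot be told apart. In medium P phf1 and Col-0 shared 2 of 3 plots and in high P all 3. Both low+P plots of phf1 and 1 of 2 of Col-0 were also low P plots of the same genotype. The fits take no account of plots, and p values measure only the spread between these libraries.

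Total counts were 2368981 to 7408960 per library, and levels are given in CPM, counts scaled to a common library total. PHR1 had 31.9 and 37.9 CPM in the phr1 phl1 pair grown in low P and 73.6 CPM in the single phr1 phl1 library labelled low+P. It had 58.4 to 77.9 CPM in phf1 and 49.0 to 74.3 CPM in Col-0. PHR1 in the single library was thus above the low P pair and inside the range of the other genotypes. Whether the label of that library is right cannot be told from these counts. PHL1 was not lower in phr1 phl1 (64.1 to 95.9 CPM) than in Col-0 (13.9 to 63.6 CPM), and PHF1 reached 9.0 to 29.1 CPM in phf1 and 14.8 to 46.9 CPM in Col-0. Where the lesions lie within these genes is not given, so counts outside them check nothing. Of 8 root markers, the endodermal regulators SHR and SCR had counts in all 25 libraries and the endodermal scaffold gene CASP1 was at 0 in 1. The root hair gene COBL9 was at 0 in 5 libraries and the iron transporter gene IRT1 in 9. The rest were MYB36, the phosphate transporter gene PHT1;1 (0.796 to 444 CPM) and the nitrate transporter gene NRT2.1 (2.65 to 385 CPM). Because the list holds genes of nutrient uptake, a P effect on them and tissue makeup cannot be told apart in its values. Transcripts of 19 photosynthesis genes were also present, at a summed 85.7 to 2940 CPM. The library Col-0 low P C stood apart, with a median Spearman correlation to the others of 0.819 over 18779 genes with a mean of at least 1 CPM, where the other libraries had 0.872 to 0.941. Results of the 9 genes that rest on it are given with and without it. Fold changes of other gene lists and correlations with genes outside the 9 are given only with it.

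Stretches upstream of ADH1 and PDC1 are shown because the hexamer AAACCA, the core of the anaerobic response element known from alcohol dehydrogenase promoters, occurs in them. Capitals mark AAACCA and the G-box CACGTG, both searched on both strands in the 300 bases before the start of 8 of the genes in the RefSeq annotation of TAIR10.1. The stretches lie at chr1:28975079-28975250 on the plus strand (ADH1) and chr4:15954832-15954879 on the minus strand (PDC1), and each is written 5′ to 3′ along its gene.
ADH1: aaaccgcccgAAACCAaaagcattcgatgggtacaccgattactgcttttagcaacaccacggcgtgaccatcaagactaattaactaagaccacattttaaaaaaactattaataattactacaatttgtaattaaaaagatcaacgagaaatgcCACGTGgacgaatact
PDC1: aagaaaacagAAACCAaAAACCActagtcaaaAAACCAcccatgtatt

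PDC1 held AAACCA 3 times within 66 bases of its start, and ADH1 held it 1 time. SUS1 held it on the opposite strand. In all, 3 of the 8 genes held AAACCA and 1 held CACGTG, where 31.77% and 7.18% of 26713 upstream windows of the same length did. A match describes letters in this window and not a bound site.

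The 9 genes differed in level, with wide ranges. Per kilobase of exon in TAIR10.1, the median over libraries was 125 CPM per kilobase for SUS1, 67.9 for HRE1, 67.6 for SUS4, 58.8 for LBD41, 40.9 for ADH1, 21.7 for PGB1, 16.1 for PCO1, 10.5 for PCO2 and 8.8 for PDC1. Between any neighbours in this order the ranges over the 25 libraries overlapped. All 9 genes varied more within groups than the median gene: the SD of log2(CPM + 1) within groups was 0.62 to 1.3, against a median of 0.445 over 18779 genes. The 10 groups accounted for 19.3% (PGB1) to 58.4% (HRE1) of the variance of a gene, with a median of 37.6% for the 9 genes and of 37.1% for all genes.

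**Figure D1:**
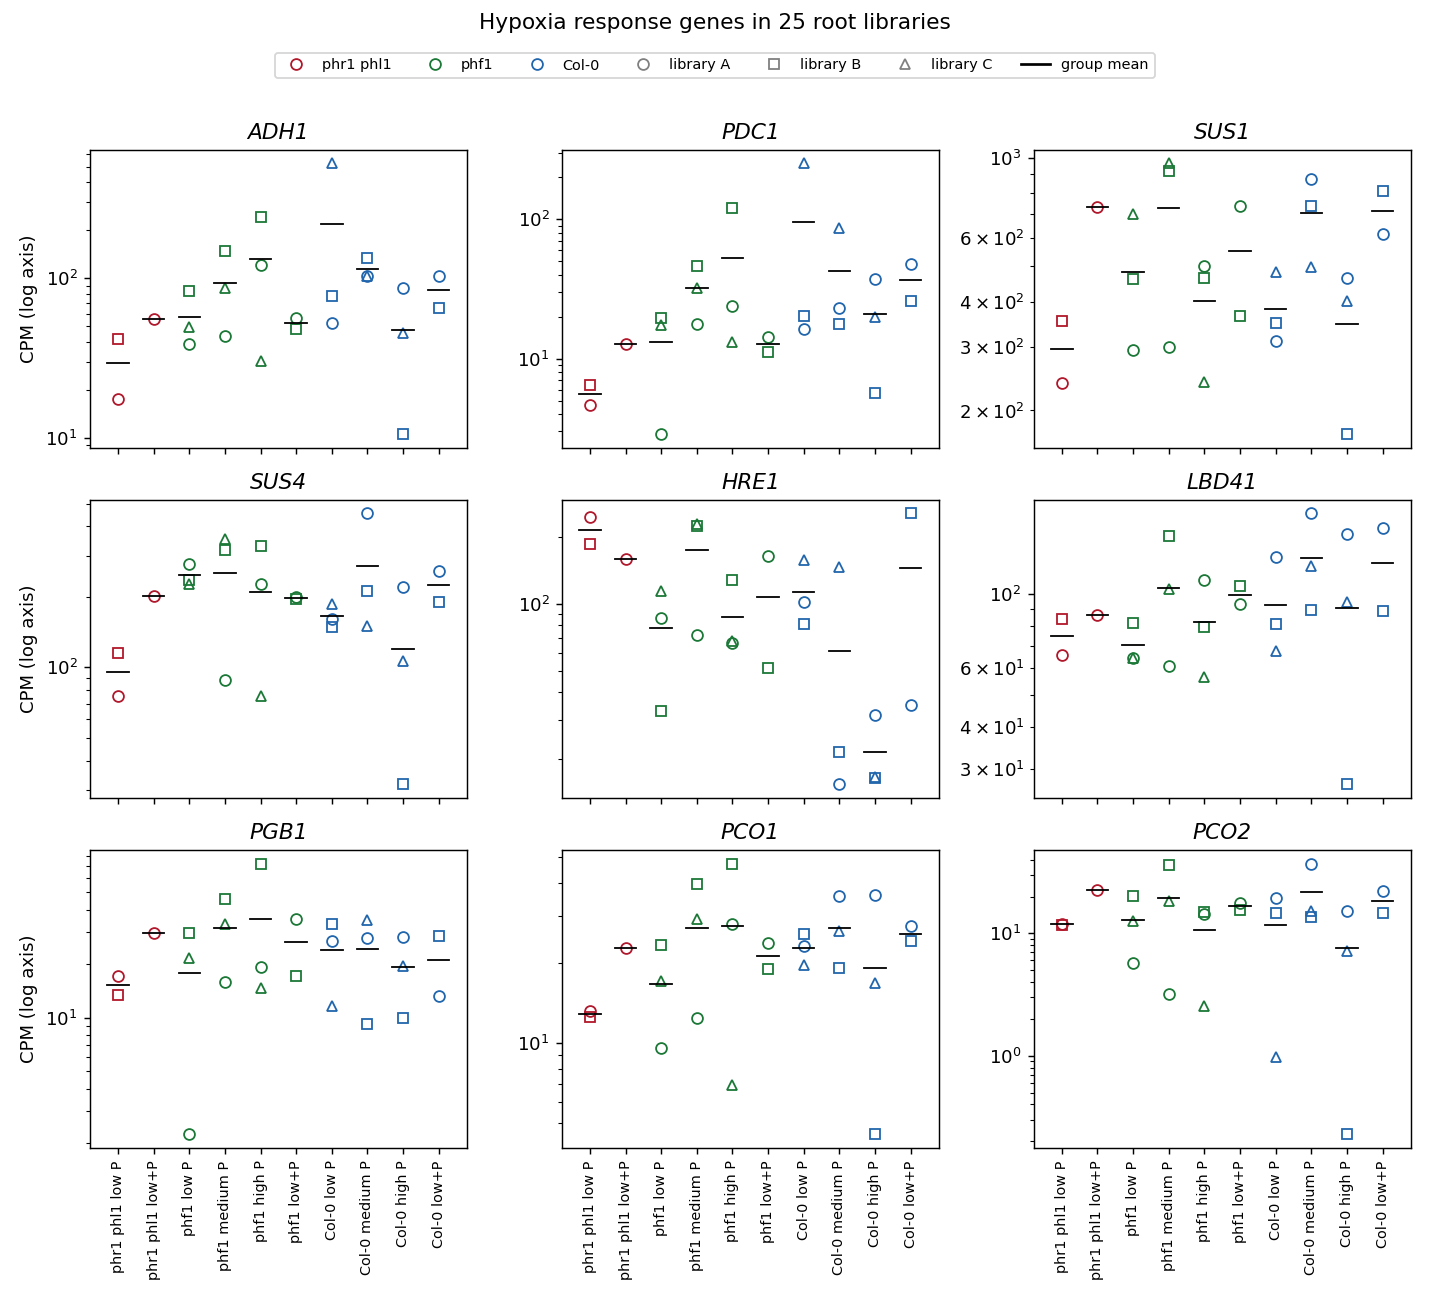
Level of each of the 9 genes in every library, in CPM on a log axis, by group of genotype and P regime. Points are libraries (shape gives the letter, which has no meaning across groups) and bars are group means. Col-0 low P C is highest for ADH1 (526 CPM) and PDC1 (251 CPM), and Col-0 high P B is lowest for 6 of the 9 genes.

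ADH1 (chr1:28975255-28977417, plus strand) encodes alcohol dehydrogenase, which makes ethanol from acetaldehyde and regenerates NAD+. It had 17.5 and 41.4 CPM in the phr1 phl1 pair of low P and 55.3 CPM in the single library labelled low+P. The phf1 libraries of low P had 38.9, 82.9 and 49.8 CPM, those of medium P 43.2, 149 and 87.0 CPM, those of high P 121, 244 and 30.3 CPM and those of low+P 56.3 and 48.2 CPM. The Col-0 libraries of low P had 52.4, 76.9 and 526 CPM, those of medium P 103, 135 and 104 CPM, those of high P 87.0, 10.5 and 45.4 CPM and those of low+P 104 and 65.3 CPM. The value of 526 CPM (1626 counts) belonged to Col-0 low P C and the next highest was 244 CPM in phf1 high P B, while the other Col-0 low P libraries lay inside the range of the remaining groups. The highest library exceeded the lowest, Col-0 high P B, 50.2-fold (95% exact interval 37.5 to 68.9, which covers counting error only).

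PDC1 (chr4:15952257-15954803, minus strand) encodes pyruvate decarboxylase, which supplies the acetaldehyde that ADH1 reduces. It had 4.68 and 6.45 CPM in the phr1 phl1 pair of low P and 12.8 CPM in the single library labelled low+P. The phf1 libraries of low P had 2.87, 19.5 and 17.3 CPM, those of medium P 17.7, 45.8 and 32.1 CPM, those of high P 24, 121 and 13.1 CPM and those of low+P 14.3 and 11.1 CPM. The Col-0 libraries of low P had 16.4, 20.2 and 251 CPM, those of medium P 23.1, 17.8 and 86.9 CPM, those of high P 37.1, 5.69 and 19.8 CPM and those of low+P 47.5 and 25.7 CPM. As for ADH1, the highest values were those of Col-0 low P C and phf1 high P B, and both phr1 phl1 low P libraries were below every Col-0 low P library.

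SUS1 (chr5:7050217-7055398, minus strand) and SUS4 (chr3:15179010-15184105, minus strand) encode sucrose synthases, which cleave sucrose to fructose and UDP-glucose and so feed glycolysis at a lower ATP cost than invertase. SUS1 was the most abundant of the 9 genes, at 172 CPM in Col-0 high P B to 963 CPM in phf1 medium P C, with a median of 466 CPM. It averaged 296 ± 82.1 CPM in phr1 phl1 low P (SD, n = 2), 483 ± 203 CPM in phf1 low P and 381 ± 89.6 CPM in Col-0 low P (n = 3 each). Within low P, SUS4 had 75.4 and 115 CPM in phr1 phl1, 277, 237 and 228 CPM in phf1, and 161, 148 and 186 CPM in Col-0. These 3 groups did not overlap in SUS4, with phr1 phl1 lowest and phf1 highest. The share of all genes that separate all 3 groups was not counted. Of 18779 genes, 13.9% kept phr1 phl1 and Col-0 apart in the direction of SUS4, and 3.58% did so for phf1 and Col-0. The phr1 phl1 pair came from plots 10 and 16, and the other groups from plots 1, 4 and 7. In low+P SUS4 had 201 CPM in the single library labelled phr1 phl1, 199 and 195 CPM in phf1 and 258 and 191 CPM in Col-0. In medium and high P it spread from 31.7 CPM (Col-0 high P B) to 454 CPM (Col-0 medium P A), a range that took in every other group.

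HRE1 (chr1:27241696-27242968, plus strand) encodes an ERF-VII that is itself induced by hypoxia, and LBD41 (chr3:536500-538126, minus strand) encodes a lateral organ boundaries domain protein of the core hypoxia set. HRE1 had 246 and 186 CPM in the phr1 phl1 pair of low P and 159 CPM in the single library labelled low+P. The phf1 libraries of low P had 86.4, 32.8 and 114 CPM, those of medium P 72.3, 223 and 229 CPM, those of high P 66.5, 128 and 67.9 CPM and those of low+P 164 and 51.5 CPM. The Col-0 libraries of low P had 102, 80.9 and 157 CPM, those of medium P 15.4, 21.4 and 147 CPM, those of high P 31.7, 16.4 and 16.6 CPM and those of low+P 35.0 and 255 CPM. The 3 Col-0 high P libraries were all below the 3 Col-0 low P libraries, whereas the Col-0 medium P and low+P groups each held libraries near both ends of the range. LBD41 was steadier, at 27.1 CPM in Col-0 high P B and 56.6 to 173 CPM in the other 24 libraries, and no group stood clear of all others.

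PGB1 (chr2:6982531-6983777, minus strand) encodes a phytoglobin, a haemoglobin that removes nitric oxide, and was at 2.23 CPM (7 counts) in phf1 low P A and 9.18 to 72.5 CPM elsewhere. PCO1 (chr5:4898641-4900734, plus strand) and PCO2 (chr5:15974270-15976270, plus strand) encode plant cysteine oxidases that are themselves hypoxia-inducible and so act back on the ERF-VIIs. Within low P, PCO1 had 13.2 and 12.5 CPM in phr1 phl1, 9.57, 23.4 and 17.1 CPM in phf1, and 23.1, 25.7 and 19.7 CPM in Col-0. Over all libraries PCO1 ranged from 4.55 CPM in Col-0 high P B to 47.3 CPM in phf1 high P B. PCO2 had 12.0 and 11.8 CPM in phr1 phl1, 5.74, 20.2 and 12.5 CPM in phf1, and 19.6, 14.7 and 0.971 CPM in Col-0. The low value was Col-0 low P C, the library with the most ADH1 and PDC1. PCO2 had its lowest value in Col-0 high P B, 0.228 CPM or 1 count, and its highest in Col-0 medium P A, 37.2 CPM, a ratio of 163 with an exact 95% counting interval of 28.8 to 6490.

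Comparison of the mutants with Col-0 in low P soil asks whether an impaired PSR goes with another level of these genes. In phr1 phl1 against Col-0, 7 of the 9 genes had a negative log2 fold change. In whole roots, fewer cells of a type and less RNA per cell cannot be told apart. ADH1 had -2.98 (SE 0.986), PDC1 -4.19 (SE 1.35), SUS4 -0.80 (SE 0.29) and PCO1 -0.81 (SE 0.327), and in these 4 every phr1 phl1 library was below every Col-0 library. HRE1 had the opposite sign, 0.92 (SE 0.75), and its 2 phr1 phl1 libraries were above all 3 Col-0 libraries. None of the 9 was called by edgeR's quasi-likelihood test at an adjusted p below 0.1 (smallest adjusted p 0.639), where 0.0% of 18830 genes were called. At an unadjusted p below 0.05, 4 of the 9 were lower and none higher, against 4.6% of all genes lower and 2.94% higher (7.54% in either direction), and for libraries that do not overlap, 13.9% of 18779 genes were lower and 12.7% higher. DESeq2 called ADH1 (log2 fold change -3.07, adjusted p 0.0602), where it called 1.02% of 17899 genes, and gave no p for PDC1. Without Col-0 low P C the edgeR values shrank to -1.09 for ADH1 and -1.65 for PDC1 and stayed near the same for SUS4 (-0.64) and PCO1 (-0.85). DESeq2 then called none of the 9 (ADH1 adjusted p 0.781), and the share of all genes called in that run was not counted. All 8 root markers also had negative values in this comparison (median log2 fold change -1.72, none with an unadjusted p below 0.05), at a summed 94.1 to 214 CPM in phr1 phl1 and 179 to 1010 CPM in Col-0. Of 17 photosynthesis genes tested, 16 had positive values, at a summed 211 to 520 CPM in phr1 phl1 and 85.7 to 274 CPM in Col-0. Col-0 low P C held both the 1010 and the 85.7 CPM. The other Col-0 low P libraries had 179 and 223 CPM for root markers and 274 and 206 CPM for photosynthesis genes. The part of either list in the values of the 9 genes was not tested.

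In phf1 against Col-0 in low P, ADH1 had a log2 fold change of -2.04 (SE 0.801) and PDC1 of -2.99 (SE 1.04), while SUS4 had 0.57 (SE 0.253) with no overlap of the libraries. None was called by edgeR (smallest adjusted p 0.938), where 0.00531% of 18830 genes were, nor by DESeq2, which called 0.166% of 17461 genes. DESeq2 gave no p for PDC1 here either. At an unadjusted p below 0.05, 1 gene was higher (SUS4) and 2 were lower (ADH1 and PDC1), against 1.75% and 2.9% of all genes. For libraries that do not overlap, SUS4 was the only one of the 9 and was higher, as were 3.58% of all genes. Without Col-0 low P C the ADH1 value was -0.14 and the PDC1 value -0.45, so these differences rested on that library, whereas SUS4 was then at 0.73. All 17 photosynthesis genes tested had positive values in this comparison (median log2 fold change 0.66, none with an unadjusted p below 0.05), at a summed 168 to 416 CPM in phf1 and 85.7 to 274 CPM in Col-0. Of the 8 root markers 7 had negative values (median -0.90, 1 with an unadjusted p below 0.05), at a summed 111 to 392 CPM in phf1 and 179 to 1010 CPM in Col-0. Here too Col-0 low P C held the 85.7 and the 1010 CPM. Photosynthesis genes had 274 and 206 CPM, and root markers 179 and 223 CPM, in the other Col-0 low P libraries. The part of either list in the values of the 9 genes was not tested. These comparisons share the Col-0 low P libraries with those of the P regimes.

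Averaged over the 4 P regimes, phf1 and Col-0 differed by -0.91 to 0.66 on the log2 scale over the 9 genes, with 5 higher and 4 lower and a median of 0.04. None was called (smallest edgeR adjusted p 0.492) and none had an unadjusted p below 0.05, where 0.0714% and 12.4% of 19603 genes did. DESeq2 called none of the 9 and 3.08% of all genes. In this comparison 18 of the 19 photosynthesis genes were higher in phf1 at an unadjusted p below 0.05 (5.28% of all genes were), with none called by edgeR and 16 by DESeq2, and their part in the values of the 9 genes was not tested. Over all 25 libraries, the mean z-score of the photosynthesis list had a Pearson r of 0.213 with that of the 9 genes, and the lists for root markers, low energy, dehydration and abscisic acid (ABA), and the clock (morning minus evening genes) had -0.136, 0.0429, 0.153 and 0.14. Of the 10 dehydration and ABA genes, 9 were lower in phf1 at an unadjusted p below 0.05 (7.08% of all genes were), with none called by edgeR and 5 by DESeq2.

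**Figure D2:**
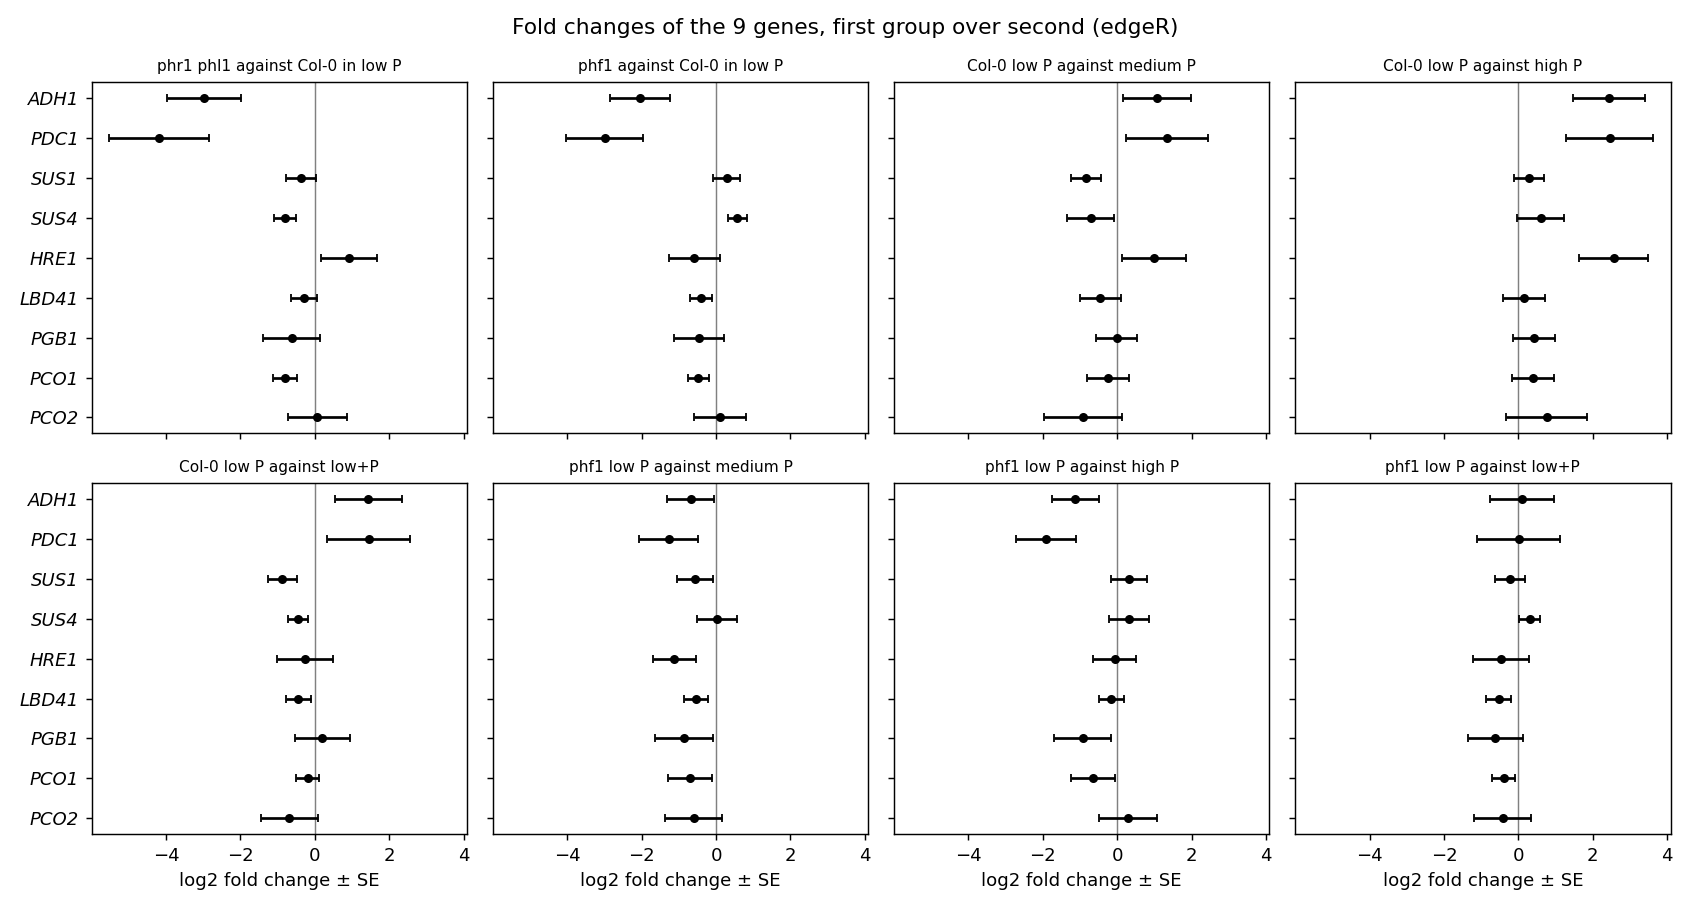
Log2 fold change of each of the 9 genes, first group over second, with its standard error, from edgeR fits. ADH1 and PDC1 lie at -2.98 and -4.19 in phr1 phl1 against Col-0, and HRE1 lies at 2.56 in Col-0 low P against high P. No value passed an adjusted p of 0.1.

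Among the P regimes of Col-0, low P had higher values than high P for all 9 genes, with a median log2 fold change of 0.60 beside 0.02 over all genes tested. HRE1 had 2.56 (SE 0.926), ADH1 2.44 (SE 0.967) and PDC1 2.46 (SE 1.17). At an unadjusted p below 0.05, HRE1 and ADH1 were higher and none lower, against 2.97% and 3.11% of 18469 genes (6.08% in either direction), and HRE1 was the only one of the 9 whose libraries did not overlap, which held for 3.95% of 18779 genes in that direction. None was called by edgeR (smallest adjusted p 0.776), where 0.00541% of genes were, and DESeq2 called none of the 9 and 0.8% of all genes. Without Col-0 low P C the values were 0.50 for ADH1, -0.11 for PDC1 and 2.16 for HRE1, and that of SUS1 turned to -0.02. Without Col-0 high P B they were 1.95, 1.99 and 2.39, and those of LBD41, PCO1 and SUS1 turned to -0.30, -0.09 and -0.05, so the shared direction of the 9 genes was lost with either library left out.

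Against medium P, Col-0 low P had a lower value for 6 of the 9 genes and a higher one for 3, with a median log2 fold change of -0.24. SUS1 had -0.84 (SE 0.407), with 311, 350 and 482 CPM under low P, against 873, 734 and 499 CPM under medium P. It was the only gene of the 9 without overlap in CPM, where 6.29% of all genes were lower without overlap. The TMM factors of all 25 libraries reverse the closest values, 482 CPM in Col-0 low P C (0.886) and 499 CPM in Col-0 medium P C (1.04). The gap was thus lost on that scale. Against low+P, 6 were lower and 3 higher (median -0.26), and SUS1 (-0.87, SE 0.395) and SUS4 (-0.45, SE 0.279) did not overlap in CPM (SUS1 615 and 806 CPM under low+P), where 10.8% of all genes were lower without overlap. For SUS4 this too was lost with TMM factors, which reverse 186 CPM in Col-0 low P C (0.886) and 191 CPM in Col-0 low+P B (1.05). None was called in either comparison (smallest edgeR adjusted p 0.664 and 0.692), where 0.00541% and 0.00531% of genes were, and none had an unadjusted p below 0.05, where 7.91% (4.28% lower) and 7.27% (3.7% lower) of genes did. DESeq2 called none of the 9 in either, where it called 1.92% and 1.44% of genes, and gave no p for PDC1 against low+P. The positive values of ADH1 and PDC1 in these comparisons, 1.07 and 1.34 against medium P and 1.43 and 1.45 against low+P, turned to -0.86, -1.23, -0.47 and -1.09 without Col-0 low P C. ADH1 had 52.4 and 76.9 CPM in the other 2 Col-0 low P libraries, against 103, 135 and 104 CPM under medium P. All 8 root markers had positive values in both comparisons, and their median was 0.98 on the log2 scale against medium P (none with an unadjusted p below 0.05) and 1.97 against low+P (1 with one). That 1 was the phosphate transporter gene PHT1;1 (log2 fold change 2.58). Their summed level was 179 to 1010 CPM under low P, against 44.8 to 348 CPM under medium P and 106 to 183 CPM under low+P. The 1010 CPM was Col-0 low P C alone, and the other Col-0 low P libraries had 179 and 223 CPM. Of 17 photosynthesis genes tested, 9 had positive values against medium P and 11 against low+P (medians 0.04 and 0.36). The part of either list in the values of the 9 genes was not tested.

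In phf1, low P had lower values than medium P for 8 of the 9 genes (median log2 fold change -0.68) and than high P for 6 (median -0.16). PDC1 against high P had -1.91 (SE 0.798) and was the only one of the 9 with an unadjusted p below 0.05, where 2.89% of 18606 genes had one (1.96% lower and 0.924% higher). It was -0.50 without phf1 high P B. Against medium P, 15 of 18 photosynthesis genes tested were lower at an unadjusted p below 0.05 and none was called (edgeR adjusted p 0.978), and their part in the lower values of the 8 genes was not tested. Against low+P the values ran from -0.62 (PGB1) to 0.31 (SUS4), and SUS4 was higher and LBD41 (-0.53, SE 0.33) lower without overlap, as were 6.75% and 5.61% of all genes. LBD41 had 64.4, 81.8 and 64.1 CPM under low P, against 93.3 and 105 CPM under low+P. Of the 9 none had an unadjusted p below 0.05, where 0.898% of 18830 genes did (0.494% higher and 0.404% lower). Against medium P also none of the 9 had one, where 3.17% of 18606 genes did (1.31% higher and 1.85% lower). No gene of the 9 was called by edgeR in any of the 3 comparisons (adjusted p 0.978 to 1), and 0.0% of all genes were called in each. DESeq2 called none of the 9 there, and of all genes 0.00436% against medium P, 0.0262% against high P and 0.0% against low+P. It gave no p for PDC1 against low+P. The tests across more than a pair of groups also called none of the 9 by edgeR. Over the 4 regimes of Col-0 none of the 9 had an unadjusted p below 0.05, where 6.08% of genes did and 0.00541% were called by edgeR and 1.76% by DESeq2. Over the 4 regimes of phf1 none had one either, where 1.57% did and 0.0% and 0.00872% were called. Over the 6 groups of low P and low+P, SUS4 had an unadjusted p of 0.0153 and PDC1 of 0.0307, where 3.6% of genes had p below 0.05 and 0.0% were called. DESeq2 called SUS4 there (adjusted p 0.0835), where it called 1.07% of 18773 genes. Without Col-0 low P C the DESeq2 adjusted p of SUS4 was 0.00821, and the share of all genes called in that run was not counted. With all libraries DESeq2 gave no p for PDC1 over the 6 groups. Over the 10 groups, none of the 9 had an unadjusted p below 0.05 (7.27% of 19603 genes did, and 0.0153% were called), and the smallest DESeq2 adjusted p of the 9 was 0.102, where DESeq2 called 4.1% of genes.

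Libraries of the same group differed widely, and several genes differed in the same libraries. For each library the z-scores of the 9 genes on log2(CPM + 1) were averaged. The lowest average was -2.21 in Col-0 high P B, where all 9 genes were among their 3 lowest libraries and 6 were at their lowest, while 1.37% of 18779 genes had their minimum there. The other libraries of that group had averages of 0.39 and -0.47. The highest averages were 1.17 in phf1 medium P B and 0.96 in phf1 high P B, in each of which 5 of the 9 genes were among their 3 highest libraries. Of the 9, none was at its highest in phf1 medium P B and 2 were in phf1 high P B, where 2.26% and 9.21% of 18779 genes had their maximum. The share of all genes among their 3 highest or 3 lowest libraries was not counted. The groups of these phf1 libraries also held averages of -0.73 and -1.07. The average had a Pearson r of 0.434 with the log2 total count over 25 libraries (0.578 without Col-0 high P B), and the part of depth was not tested.

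Over the 25 libraries, 18 of the 36 pairs of genes had a Pearson r above 0.5 on log2(CPM + 1), with a median of 0.50 over the pairs, beside 0.04 over pairs of all genes (every 10th gene taken). Points share library, depth and preparation, so r is given as a description. The sucrose synthases (r = 0.79), the cysteine oxidases (0.77), the fermentation enzymes (0.86), and LBD41 with PCO1 (0.81) and PCO2 (0.82) were the closest pairs within and between roles. SUS4 with PCO1 was at 0.80. The median was 0.52 for deviations from the group means over the 24 libraries in groups of at least 2.

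HRE1 stood outside this pattern, with r of 0.00 to 0.28 with the other 8 genes. The exons of HRE1 and of ADH1 overlap a gene on the opposite strand in TAIR10.1, over 124 of 1273 and 61 of 1595 exon bases, and reads of an overlap cannot be assigned in libraries without strand. The gene opposite HRE1, P40 (AT1G72370), which encodes a ribosomal protein, was at 464 to 931 CPM and had an r of -0.136 with HRE1. The gene opposite ADH1, AT1G77122, was at 0.971 to 12.1 CPM and had an r of -0.652 with ADH1. Its 0.971 CPM was in Col-0 low P C, the library with the most ADH1, and r without that library was not computed. No 50-base stretch of an exon of the 9 genes occurred elsewhere in the TAIR10.1 genome.

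**Figure D3:**
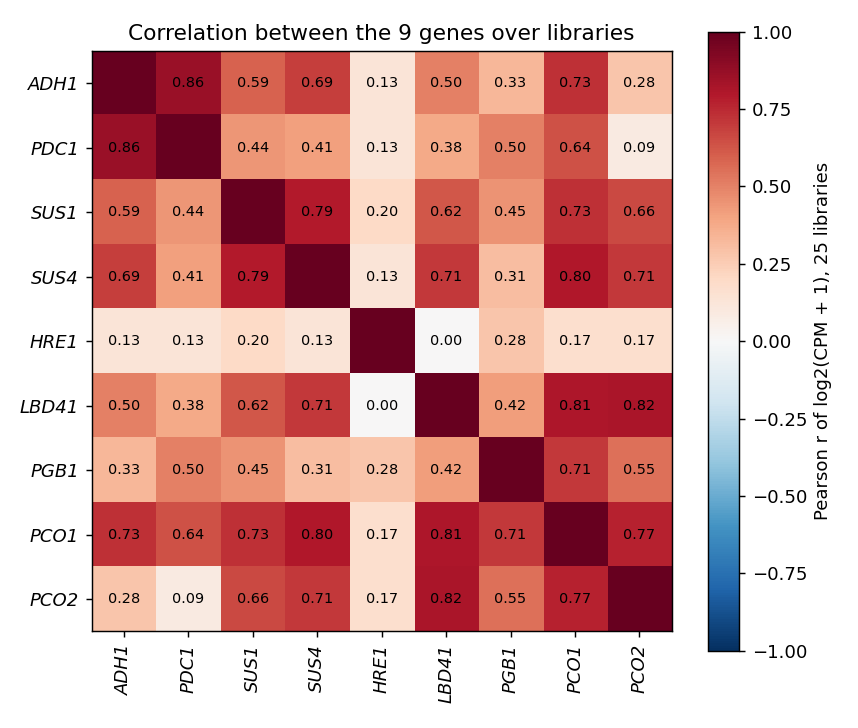
Pearson r between the 9 genes over 25 libraries on log2(CPM + 1), printed in each square. ADH1 and PDC1 are at 0.86, LBD41 and PCO2 at 0.82, and the row of HRE1 holds 0.00 to 0.28.

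Fermentation genes parted from the cysteine oxidases in Col-0 low P C. The ratio of ADH1 to PCO1 in CPM was 26.7 there and 1.33 to 7.03 in the other 24 libraries (median 2.99), and that of PDC1 to PCO1 was 12.7 there and 0.300 to 3.28 elsewhere (median 0.968). The r of ADH1 with PCO2 was 0.28 over all libraries, 0.71 without Col-0 low P C and 0.0 without Col-0 high P B. That of PDC1 with PCO2 was 0.09, 0.46 and -0.08 in the same order. Col-0 high P B held 1 count of PCO2 and the lowest ADH1 level (10.5 CPM), and r without both libraries was not computed. The ratio of SUS4 to SUS1 was 0.385 in Col-0 low P C, inside the range of 0.184 to 0.944 of the others.

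**Figure D4:**
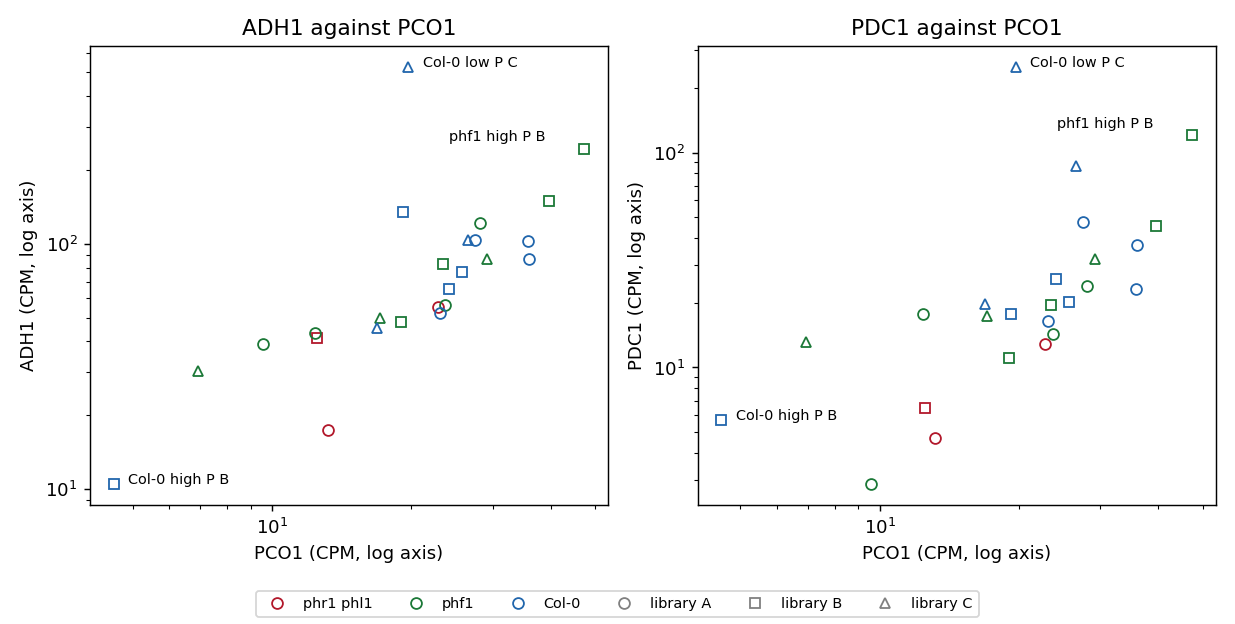
ADH1 (left) and PDC1 (right) against PCO1, each in CPM on log axes, with 1 point per library. In Col-0 low P C both are the highest of all libraries at a PCO1 level of 19.7 CPM, which is inside the range of the rest. Col-0 high P B is lowest in PCO1 and phf1 high P B highest.

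Other genes of fermentation and oxygen sensing in this library were chosen after their values were seen. The library held the maximum of 10.4% and the minimum of 25.4% of 18779 genes, so extremes were common in it. Of 35 further hypoxia genes with a mean of at least 1 CPM, 4 (11.4%) were highest and 5 (14.3%) lowest there, and of 11 oxygen-sensing genes none was highest and 6 (54.5%) lowest. LDH, lactate dehydrogenase, was at 80.2 CPM (median of all libraries 21.4), the phosphofructokinase gene PFK6 at 34.0 CPM (median 19.1), the aquaporin gene NIP2;1, whose product transports lactic acid, at 12.9 CPM (median 1.57), and PDC3, a pyruvate decarboxylase gene, at 22.3 CPM (0 to 8.43 CPM in the others). Each had its highest value there, as did AT5G66985 (16.2 CPM, median 4.22). PDC2, another pyruvate decarboxylase gene, was below its median, at 89 CPM against 115 CPM. By contrast RAP2.3, a constitutively expressed ERF-VII gene, was at 32.7 CPM (73.8 to 524 CPM in the others), and the cysteine oxidase genes PCO3, PCO4 and PCO5 were at 8.41, 12 and 27.5 CPM, each the lowest of all libraries. AT1G19530, of unknown function and in the core hypoxia set, was lowest at 21 CPM (median 177), and the other hypoxia genes lowest there were RBOHD, HRU1, AT3G10020 and AT1G33055, at 132, 22, 41.1 and 4.85 CPM (medians 331, 39.8, 127 and 18.6). The photosynthesis list was at its lowest there (85.7 CPM summed, 130 to 2940 CPM in the others) and the 8 root markers at 1010 CPM summed (44.8 to 1090 CPM in the others), and the part of tissue makeup or RNA quality in the values of ADH1 and PDC1 was not tested.

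Of 40 further hypoxia response genes, 35 had a mean of at least 1 CPM. Of these, 10 had an r above 0.5 with the averaged z-score of the 9 genes, as did 3.61% of 18779 genes, and the median r was 0.25 beside 0.01 over all genes. The 6 most like were ACO1 (ethylene synthesis, r = 0.76), HRA1 (a trihelix repressor of RAP2.12, 0.76), AT4G10270 (0.71), PFK6 (0.68), AT3G27220 (0.64) and AT5G44730 (0.61). HRA1 was at 1.46 CPM in phr1 phl1 low P A and 26.9 CPM in Col-0 medium P C, with a median of 6.00 CPM. ACO1 was at 15.2 CPM in phf1 medium P A and 88.8 CPM in Col-0 low+P A, with a median of 45.0 CPM. At the other end, AT5G42200 had an r of -0.52 and ACR7 of -0.35. None was called by edgeR in any of the 13 comparisons. Over the 10 groups 10 of 36 tested had an unadjusted p below 0.05 and DESeq2 called 7, against 7.27% and 4.1% of all genes. DESeq2 also called 3 over the regimes of Col-0, 1 in Col-0 low P against medium P and 2 in phf1 against Col-0 averaged over the regimes, where it called 1.76%, 1.92% and 3.08% of all genes. The gene of the last 2 comparisons with the smallest DESeq2 adjusted p was ARD3, chosen after its values were seen, at DESeq2 log2 fold changes of 4.21 and 2.17 (adjusted p 0.000619 and 0.00454). In phr1 phl1 against Col-0 in low P, 6 were lower and 1 higher at an unadjusted p below 0.05 (4.6% and 2.94% of all genes were), with a median log2 fold change of -0.44 over 35 tested, against -0.03 over all genes.

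Outside these lists, the 5 genes with a mean of at least 1 CPM most like the 9 were 5PTase12 (AT2G43900, an inositol polyphosphate 5-phosphatase, r = 0.86), RD2 (AT2G21620, 0.82), AT1G11820 (0.79), ROC4 (AT3G62030, a cyclophilin, 0.78) and CYSC1 (AT3G61440, a mitochondrial beta-cyanoalanine synthase, 0.78). In 4 of these 5 the lowest library was Col-0 high P B, as for 6 of the 9 genes. The 5 were chosen by r with an average that is itself lowest in that library (-2.21), so this is partly built in. Their r without Col-0 high P B was not computed. 5PTase12 was at 13.9 to 53.6 CPM and CYSC1 at 177 to 569 CPM.

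None of the 11 oxygen-sensing genes upstream of the 9 was called by edgeR. DESeq2 called 1 of them, RAP2.2 over the 10 groups (adjusted p 0.0664), where it called 4.1% of all genes. The constitutive ERF-VII genes RAP2.12 and RAP2.2 were at medians of 355 and 307 CPM and RAP2.3 at 195 CPM. RAP2.2 had a log2 fold change of -0.98 (SE 0.369, edgeR adjusted p 0.554) in Col-0 low P against medium P. It was the only one of the 11 genes with an unadjusted p below 0.05 there, where 7.91% of all genes had one (4.28% lower). Its highest value was 819 CPM, in Col-0 medium P B. The oxidase genes PCO3, PCO4 and PCO5, which are not hypoxia-inducible, were at medians of 18.7, 17.8 and 45 CPM. Of the genes of the N-degron pathway, which removes oxidized ERF-VIIs, ATE1 and ATE2 were at medians of 30.3 and 14.2 CPM and PRT6 at 181 CPM. ACBP1 and ACBP2, whose products hold RAP2.12 at the membrane, were at medians of 27.4 and 40 CPM.

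Among paralogs, levels were compared per kilobase of exon, as medians over the 25 libraries. SUS2, SUS3, SUS5 and SUS6 had 0.566, 6.2, 5.17 and 8.48 CPM per kilobase, against 125 for SUS1 and 67.6 for SUS4. SUS3 ranged from 1.33 CPM to 265 CPM, its value in Col-0 medium P B. It was called by DESeq2 over the 10 groups (adjusted p 0.076), where DESeq2 called 4.1% of all genes, but not by edgeR (0.669). PDC3 and PDC4 had 0.35 and 0.344 CPM per kilobase and were at 0 in 4 and 2 libraries, against 8.8 for PDC1. PDC2, which is in the further hypoxia list, was above PDC1, with 50.4 CPM per kilobase. The phytoglobin genes PGB2 and PGB3 had 0.888 and 8.49 CPM per kilobase, against 21.7 for PGB1.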

How the data were processed

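Roots of the 3 genotypes in 4 P regimes gave 25 libraries. The authors trimmed single-end reads with Trimmomatic 0.36, mapped them to TAIR10 with HISAT2 2.1.0 and counted them with featureCounts, with version and strand setting not given in the sources used here. The deposited values are raw whole-number counts for 27206 genes, not normalized by the authors. Reads of overlapping genes are uncertain, since the libraries were not stranded.

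CPM used the library total. Groups were tested with edgeR 4.0.16 (filterByExpr, TMM, quasi-likelihood F test) in R 4.3.3, with Benjamini-Hochberg adjustment over all genes and a threshold of 0.1. The 13 low P and low+P libraries were fitted together (18830 genes), the 11 Col-0 (18469) and 11 phf1 (18606) libraries each alone, and all 25 for the rest (19603). A standard error is the log2 fold change over the square root of F. Alternatives were DESeq2 1.42.0, RLE factors, other filters, a threshold of 0.05, all libraries in 1 fit, and each library left out. The code was tested on simulated data. The z-scores and correlations used log2(CPM + 1). Within groups, 21 library pairs had chi-square values of at least 5.55 per gene, so none was merged. Total counts of 2368981 to 7408960 make 1 CPM a few reads.

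All 25 columns of the table were used. The 9 genes and the lists were chosen with earlier results of these data known. Named were all 9 genes, the 6 listed and 5 other genes most like them, all oxygen-sensing genes and paralogs, and any gene of these lists called by edgeR. Gene positions, exon lengths and sequences are RefSeq's for TAIR10.1, in which 26714 identifiers matched. The upstream sequence of 1 of the 9 genes is not reported here.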

Additional observations from a re-analysis of the deposited data

Results flagged for a closer look

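SUS4 had log2 fold changes of opposite sign between low P and low+P in the 2 genotypes, with no overlap of libraries in CPM in either. In Col-0 the gap lay between 186 CPM (Col-0 low P C) and 191 CPM (Col-0 low+P B). Scaling by the TMM factors of all 25 libraries (0.886 and 1.05) reverses this order, so those groups then overlap. The share of all genes with such a pattern in both genotypes was not counted. The phf1 libraries of low P had 277, 237 and 228 CPM and those of low+P 199 and 195 CPM, with a log2 fold change of 0.31 (SE 0.283). The Col-0 libraries of low P had 161, 148 and 186 CPM and those of low+P 258 and 191 CPM, with a log2 fold change of -0.45 (SE 0.279). The difference of the changes, phf1 minus Col-0, was 0.76 (SE 0.398, edgeR unadjusted p 0.0844, adjusted p 1), and 3.9% of 18830 genes had an unadjusted p below 0.05 for it. Without Col-0 low P C it was 0.92 (SE 0.381, unadjusted p 0.0372, adjusted p 0.547), where 9.09% of genes had one. Without Col-0 low+P A, the library at 258 CPM, it was 0.42 (SE 0.429, unadjusted p 0.349), and the Col-0 change was then -0.11. With each of the 10 phf1 and Col-0 libraries left out in turn it ran from 0.42 to 1.03 (unadjusted p 0.0372 to 0.349). This test was chosen after the data were seen.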

How the results depend on the processing

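No paired analysis was possible because the count columns carry no replicate number or plot, although the labels show that compared groups share plots. Across 13 comparisons, edgeR called none of the 9 genes under any alternative run (smallest adjusted p 0.152). This held also with Col-0 low P C and Col-0 high P B left out together, chosen after seeing the data and run for the 4 Col-0 regimes, Col-0 low P against medium and against high P, the 10 groups and phf1 against Col-0 averaged over the regimes. How many of all genes were called with both left out was not counted. In many of the other edgeR runs no gene at all was called, so a count of 0 there does not set the 9 apart. The most called were 362 genes, in phf1 against Col-0 averaged over the regimes without Col-0 medium P C. Without phf1 high P B that comparison called 199 genes. Col-0 low P against medium P called 198 genes without Col-0 medium P C. DESeq2 called 1 gene over the 6 groups of low P and low+P (SUS4, adjusted p 0.0835) and 1 in phr1 phl1 against Col-0 in low P (ADH1, log2 fold change -3.07, adjusted p 0.0602), and none in the other 11. In every comparison fitted on the 13 low P and low+P libraries it gave no p for PDC1, so PDC1 was not tested by DESeq2 there. Of 1485 alternative log2 fold changes, 65 had another sign than the value reported, all with a library left out, and 12 of them moved by more than 1 standard error. With each library left out in turn, the Col-0 low P against low+P values ran from -0.47 to 1.92 for ADH1, -1.09 to 2.08 for PDC1, -1.05 to 1.64 for HRE1 and -0.85 to 0.14 for LBD41. Those against medium P ran from -0.86 to 1.51 for ADH1 and -1.23 to 2.34 for PDC1, and that of PDC1 against high P from -0.11 to 3.17. In phf1 low P they ran from -1.05 to 0.56 for HRE1 and -0.62 to 0.33 for SUS1 against low+P, -1.08 to 0.21 for PCO2 against medium P, and -1.46 to 0.06 for PGB1 against high P. ADH1 in phf1 against Col-0 averaged over the regimes ran from -0.58 to 0.09. The median r between the genes was 0.43 to 0.66 with a library left out. A group left with 1 library was assumed to vary like the others. At 1 to 3 libraries a group, even values of -2.98 (SE 0.986, ADH1) and -4.19 (SE 1.35, PDC1) in phr1 phl1 against Col-0 were not called by edgeR, so changes of that size at such a spread can go uncalled.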
